A study of Mus musculus with 48 samples.

Results

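The 10 libraries described here follow ethanol-treated mouse embryonic stem cells (ESCs) through the first 5 h after release from a block at the entry into S phase, out of 48 libraries in the whole series. They were chosen by their labels alone: 2 libraries at 1 h were compared with 4 libraries at 4 and 5 h, and 4 libraries at 2 and 3 h gave the course between. The series sequenced nascent RNA to ask how transcription responds to depletion of FOXD3, a forkhead factor made in pluripotent cells, in cycling and in synchronized cells. Cells carried the genotype FOXD3-iKO, in which addition of tamoxifen (4HT) induces depletion of FOXD3, and were grown in a medium containing L2i. Ethanol, the solvent, was the treatment of all 10 libraries, so these cells carry the inducible genotype without the induction. The release from a double thymidine block came 24 h after the treatment began, and 4-thiouridine (4SU), a uridine analogue built into RNA as it is made, was present for 15 min before collection. The ethanol libraries of 0 h and the 4HT libraries of 1, 4 and 5 h of the same experiment (6 libraries) were used for comparison.

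Excess thymidine stops DNA replication by unbalancing the nucleotide pool, and its removal lets the arrested cells run through S phase together. Cells copying their DNA transcribe the replication-dependent histone genes, which supply the new chromatin, while genes for the G2 phase and mitosis are held low early in the cycle and switched on as cells approach division. RNA labelled for minutes reports what is being transcribed at that time more closely than total RNA does, and it holds introns as well as exons. The sources used here give no measurement of DNA content, so the S-phase stage of each time point rests on the labels and on the transcripts themselves.

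Totals ran from 12002951 to 17936504 counts per library, at which 3 counts correspond to 0.167 to 0.25 CPM (counts per 1e6 counts), a floor that covers counting error only. The share of counts in Gm26917 and Gm42418, which collect reads of ribosomal RNA, ran from 3.83% to 25.4% and differed between partners of a time point, most at 3 h (25.4% and 4.77%) and at 5 h (24.4% and 3.83%). Libraries of one time point correlated at 0.973 (3 h) to 0.993 on log2 CPM across genes, and the pair at 3 h stood furthest apart. Foxd3 itself measured 3.89 to 8.24 CPM in the ethanol libraries and 1.18 to 2.19 CPM in the 4HT libraries, with no overlap. The ESC markers summed to 2050 to 2750 CPM in the 10 libraries, with Sox2 listed at 0. Sox2 lies within Sox2ot, and all 6484 genes that lie inside another gene of the same strand were at 0 in every library. Of the other cell types checked, the summed markers of fibroblasts (1.12 to 2.58 CPM, Postn at 0), neural cells (1.06 to 3.72 CPM, Sox1 and Tubb3 at 0), trophectoderm (18.6 to 31.4 CPM) and primitive endoderm (18.1 to 33.9 CPM) were low. The blood and endothelial sum of 213 to 292 CPM came mostly from Pecam1, which ESCs also express.

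Between 1 h and 4 to 5 h, transcription was redistributed in both directions in about equal numbers of genes. Of 17739 genes tested, 1061 (5.98%) were higher and 1063 (5.99%) lower at an adjusted p under 0.05 in edgeR's quasi-likelihood test, 12% in all. Among the called genes, 212 were higher and 271 lower by more than 2-fold, and the median log2 fold change over all genes was 0.0122. The libraries of 1 h and of 4 to 5 h did not overlap in 6526 genes (36.8%). Scaling decided the balance of directions: with total counts outside the 2 ribosomal RNA genes 445 genes were higher and 2127 lower, and with total counts alone 301 and 687, as these scalings moved the median of all genes to -0.201 and -0.0929. The number of calls fell to 505 without replicate 1 of 1 h, 641 without replicate 2 of 1 h and 1157 without replicate 2 of 4 h, and reached 3433 without replicate 1 of 4 h.

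The numbers of genes called grew from 2 h to 4 h. At 2 h 70 genes (0.395%) differed from 1 h, 14 of them higher (0.0789%), and at 3 h 261 (1.47%), 120 of them higher (0.676%). At 4 h alone 1148 genes differed (6.47%, with 3.04% higher and 3.43% lower), and at 5 h alone 1135 (6.4%, with 3.2% higher and 3.2% lower). These comparisons share the libraries of 1 h, so their values are given side by side without a count of shared genes. The 1061 higher genes stood at a median of 0.262 above 1 h on the log2 scale at 2 h, 0.326 at 3 h, 0.586 at 4 h and 0.612 at 5 h. The 1063 lower genes stood at -0.27, -0.37, -0.589 and -0.606. These genes were chosen on 4 to 5 h against 1 h, so their medians there are a description. By the means of the libraries, 527 of the higher genes (49.7%) and 653 of the lower ones (61.4%) moved in one direction over 1, 2, 3 and 4 to 5 h. No gene differed between 4 and 5 h in edgeR's quasi-likelihood test, with 380 genes at an unadjusted p under 0.05, and none did with DESeq2. Each time point had 2 libraries, and the counts at 2 and 3 h moved when any 1 library of those comparisons was left out.

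The replication-dependent histone genes, which encode the H1 linker and the 4 core histones packaged onto new DNA, had the largest share of members lower among the gene lists counted. Of 64 members tested, 61 fell and 0 rose, beside 5.99% of all genes lower, and the median log2 fold change of the list was -1.70. By type, 6 of 6 H1 genes, 16 of 18 H2A, 16 of 16 H2B, 11 of 11 H3 and 12 of 13 H4 genes fell. In these bulk samples, fewer cells making a transcript and less of it made per cell cannot be told apart. Many histone genes are near-identical copies of each other and how reads matching several copies were counted is not stated in the labels, so the value of a single copy is uncertain.

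**Figure D1:**
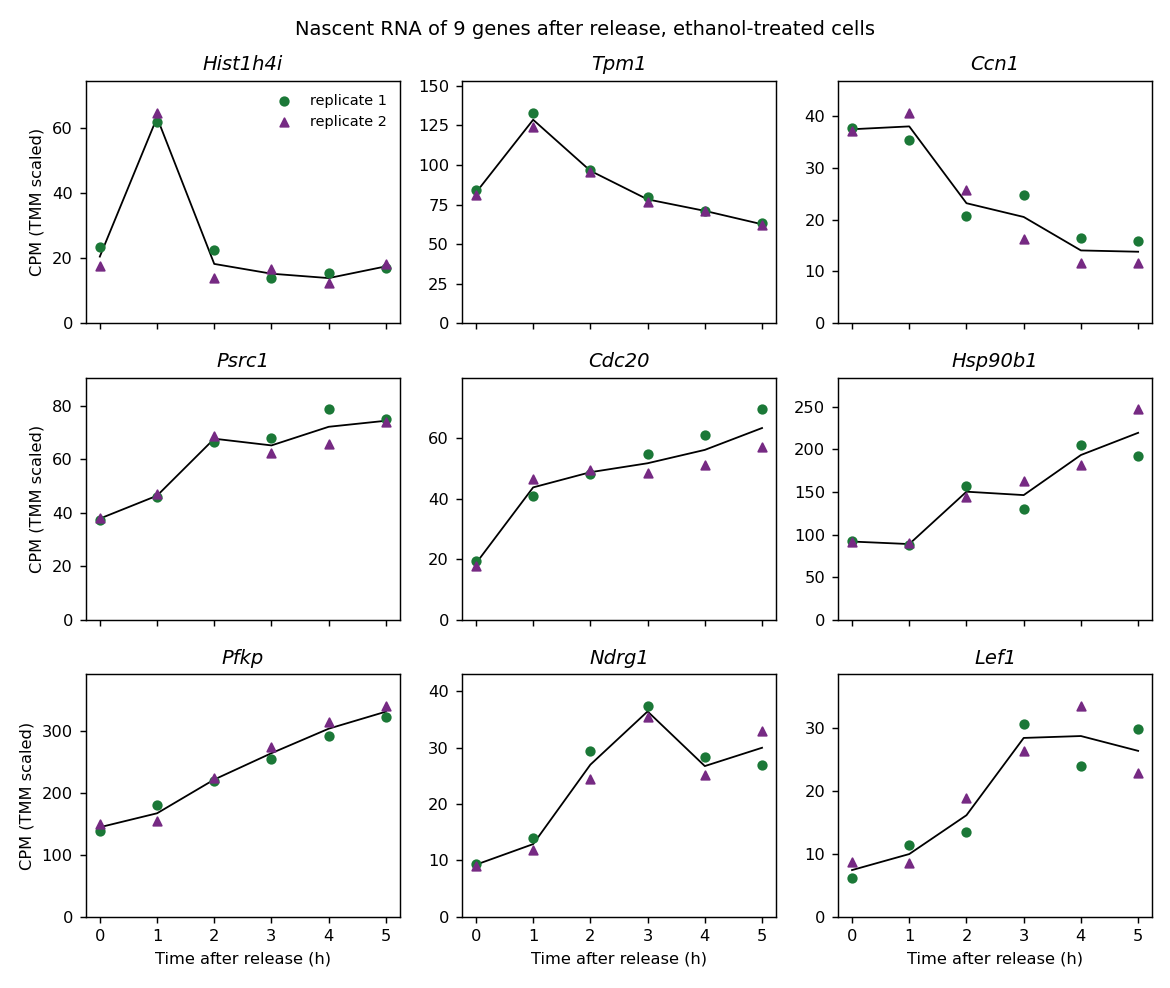
CPM after TMM scaling (vertical axes, each from 0) of 9 genes against hours after release (horizontal axis) in ethanol-treated cells. Circles are replicate 1, triangles replicate 2 and lines join the means of 2 libraries. Hist1h4i peaks at 1 h and is back near its 0 h level by 2 h. From 1 h to 5 h, Tpm1 drops and Pfkp climbs at each step.

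Hist1h4i, a histone H4 gene at chr13:22040636-22041362 (mm10, minus strand), measured 23.4 and 17.6 CPM at 0 h, 61.7 and 64.7 CPM at 1 h, 22.6 and 13.9 CPM at 2 h, 13.8 and 16.7 CPM at 3 h, 15.4 and 12.4 CPM at 4 h and 16.9 and 18.1 CPM at 5 h. Only the libraries of 1 h were high, and every library before or after them was at 23.4 CPM or less. The log2 fold change from 1 h to 4 to 5 h was -2.01 ± 0.15 (SE, adjusted p = 1.87e-06, edgeR's quasi-likelihood test), and at 2 h it was already -1.80 ± 0.19 (adjusted p = 0.000432). Hist1h1b, which encodes a linker histone H1, measured 161 and 173 CPM at 1 h, 79.2 and 57.9 CPM at 2 h, 56.4 and 34.5 CPM at 4 h and 53 and 51.9 CPM at 5 h. Its 2 groups did not overlap and the log2 fold change was -1.77 ± 0.18 (adjusted p = 2.3e-05). The largest falls of the list were those of the H2B genes Hist1h2ba (-2.36) and Hist1h2bh (-2.24).

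The fall ended the peak at 1 h rather than passing below the starting level. Over the whole list the median was -1.43 at 2 h, -1.61 at 3 h, -1.85 at 4 h and -1.52 at 5 h, and 35 members were called lower at 2 h (0.316% of all genes were) and 50 at 3 h (0.795%). Against 0 h, the time of the block, the libraries of 4 to 5 h had a list median of -0.0164, with 5 members higher and 3 lower (13.7% and 13.5% of all genes were). The summed level of the 64 genes was 1050 and 644 CPM at 0 h, 2160 and 2460 CPM at 1 h, 1120 and 796 CPM at 2 h, 862 and 898 CPM at 3 h, 851 and 566 CPM at 4 h and 913 and 868 CPM at 5 h. The 3 members that did not pass were Hist2h2ab, at 1.22 and 1.07 CPM at 1 h and 0.908 to 1.31 CPM at 4 to 5 h, Hist1h2aj (-1.04, adjusted p = 0.0552) and Hist1h4a (-0.83, adjusted p = 0.0734). Their names were given because they set the count. Without replicate 1 or replicate 2 of 1 h, 53 and 47 members were still called lower.

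Of 11 replacement histone genes, which are transcribed outside S phase as well (a list written after values were seen), 1 rose and 1 fell (5.98% and 5.99% of all genes did), with a median of 0.0348. The one that rose was Cenpa, the histone H3 variant of centromeres, and the one that fell was H3f3b, a source of histone H3.3 (120 to 92.6 CPM in the mean, log2 fold change -0.37, adjusted p = 0.0362 in edgeR's quasi-likelihood test). Slbp, which binds the stem-loop that ends replication-dependent histone mRNAs, fell by 0.31 on the log2 scale (adjusted p = 0.0286). It measured 105 and 97.4 CPM at 1 h and 77.0 to 84.3 CPM at 4 to 5 h, and the groups did not overlap. Slbp and H3f3b each lost their call in 11 of 18 other settings (adjusted p up to 0.286 and 0.201), among them those without either library of 1 h, without either library of 5 h or without replicate 2 of 4 h. Cenpa lost its call in 5 settings, among them the one without replicate 2 of 1 h (adjusted p up to 0.124).

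The promoter of Hist1h1b is printed because the histone list moved as a block and because the common boxes of histone promoters can be read in it. It is the stretch of 250 bases before the gene's start in RefSeq (GRCm38.p6, the assembly also named mm10), at chr13:21780626-21780875 on the minus strand, 5′ to 3′, with TATAAA and CCAAT, on either strand, in capitals.
Hist1h1b: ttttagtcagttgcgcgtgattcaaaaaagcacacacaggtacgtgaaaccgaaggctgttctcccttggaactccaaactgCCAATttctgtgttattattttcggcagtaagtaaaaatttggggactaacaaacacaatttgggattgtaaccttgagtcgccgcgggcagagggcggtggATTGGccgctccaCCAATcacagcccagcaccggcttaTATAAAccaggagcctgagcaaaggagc
The TATA box begins 28 bases before the start, and CCAAT matches begin 168, 66 (on the other strand) and 53 bases before it. A TATAAA stood within 250 bases before to 50 after the start, on either strand, in 34 of 56 histone promoters found in the RefSeq table (60.7%), against 9.49% of the 12572 promoters of tested genes. CCAAT stood in 83.9% of histone promoters and in 42.8% of all. These are matches of letters in a window, and the table held promoters for 70.9% of the genes tested.

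Genes of the G2 phase and mitosis moved the other way and more slowly. Of 60 members, 25 rose and 0 fell (5.98% of all genes were higher), 59 had a positive fold change and the median was 0.374, from 0.163 at 2 h. Foxm1, a transcription factor of this program, was the 1 member with a negative value. The members that rose included regulators of entry into mitosis (Ccnb1, Ccnb2, Cdc25b, Cdc25c, Plk1 and Bora), spindle and kinetochore genes (Psrc1, Ckap2, Hmmr, Nusap1, Cenpf, Kif11 and Nuf2) and checkpoint or exit genes (Bub1b and Cdc20). The summed level of the 60 genes was 4400 and 4530 CPM at 0 h, 6390 and 6550 CPM at 1 h, 7360 and 7570 CPM at 2 h, 6870 and 7710 CPM at 3 h, 8080 and 8690 CPM at 4 h and 8390 and 8410 CPM at 5 h. Every library of 4 to 5 h exceeded both libraries of 1 h in this sum.

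Psrc1, which encodes a spindle-associated protein, measured 45.8 and 47.0 CPM at 1 h, 66.6 and 68.7 CPM at 2 h, 67.8 and 62.5 CPM at 3 h, 78.6 and 65.6 CPM at 4 h and 74.9 and 73.8 CPM at 5 h. All later libraries lay above 1 h, and most of the rise was present at 2 h. The log2 fold change to 4 to 5 h was 0.66 ± 0.08 (adjusted p = 0.000102, edgeR's quasi-likelihood test), and at 2 h it was 0.54 ± 0.09 (adjusted p = 0.0118). Cenpa measured 91.2 and 90.0 CPM at 1 h, 102 and 104 CPM at 2 h, 136 and 122 CPM at 4 h and 141 and 125 CPM at 5 h, with a log2 fold change of 0.53 ± 0.10 (adjusted p = 0.0022). The groups of Cenpa did not overlap, and at 2 h its value of 0.18 did not pass (adjusted p = 0.697).

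Cdc20, the activator of the anaphase-promoting complex, measured 19.6 and 17.7 CPM at 0 h, 40.8 and 46.6 CPM at 1 h, 48.1 and 49.3 CPM at 2 h, 54.8 and 48.5 CPM at 3 h, 61.0 and 51.1 CPM at 4 h and 69.4 and 57.1 CPM at 5 h. The later libraries were all above 1 h, by a small margin, and the log2 fold change was 0.45 ± 0.10 (adjusted p = 0.0118, edgeR's quasi-likelihood test). Ccnb1, which encodes cyclin B1, rose by 0.34 on the log2 scale (adjusted p = 0.0161), from 177 and 172 CPM at 1 h to 198 to 238 CPM at 4 to 5 h. The largest called rise was that of Aspm, a spindle pole gene (1.01, adjusted p = 0.0138). Against 0 h, 54 of the 60 members were higher at 4 to 5 h, beside 13.7% of all genes, with a median of 0.973.

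The direction of the G2 and mitosis list held under each scaling tried, with a median of 0.266 with total counts alone and 0.157 with total counts outside the ribosomal RNA genes, but the number of calls did not. It was 2 with total counts alone, 8 higher and 1 lower outside the ribosomal RNA genes, 0 when only the libraries compared were fitted, 5 and 3 without replicate 1 or 2 of 1 h, and 14 and 16 without replicate 2 of 4 h or of 5 h.

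The promoter of Cdc20 is printed because it holds an element found in most promoters of the G2 and mitosis list. The stretch is the 250 bases before the RefSeq start, at chr4:118437344-118437593 on the minus strand (GRCm38.p6), with TTTGAA, the cell cycle genes homology region (CHR) that is bound by repressor and activator complexes of the cell cycle, and CCAAT in capitals.
Cdc20: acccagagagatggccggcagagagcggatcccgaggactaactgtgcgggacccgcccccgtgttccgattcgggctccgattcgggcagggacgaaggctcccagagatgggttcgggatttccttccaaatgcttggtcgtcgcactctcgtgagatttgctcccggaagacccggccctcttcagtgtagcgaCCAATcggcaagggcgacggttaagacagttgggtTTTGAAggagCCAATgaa
The CHR begins 18 bases before the start and the CCAAT boxes 53 and 8 bases before it. TTTGAA stood, on either strand, in 32 of 48 promoters of the G2 and mitosis list (66.7%), against 15.5% of all promoters of tested genes and 20.1% of those of the genes called higher. CCAAT stood in 79.2% of the list's promoters. The histone list held TTTGAA in 46.4% of its promoters while its members fell.

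**Figure D2:**
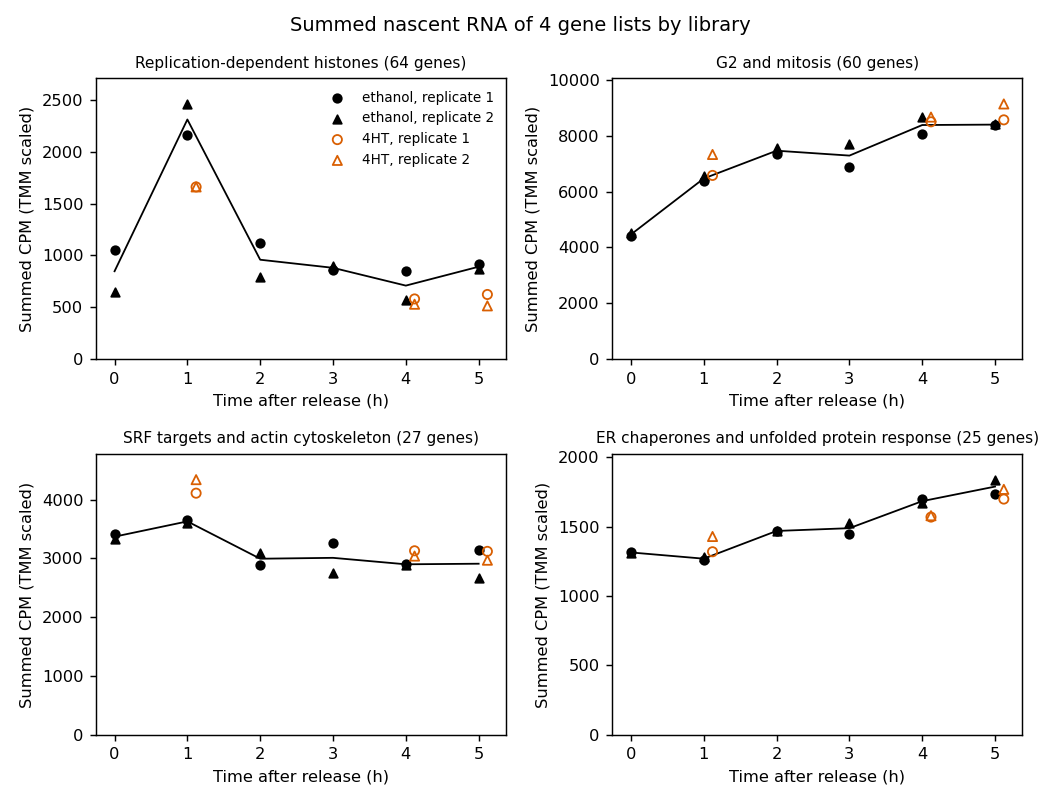
Summed CPM after TMM scaling (vertical axes, from 0) of 4 gene lists against hours after release (horizontal axis). Filled symbols are ethanol libraries (circles replicate 1, triangles replicate 2), open symbols 4HT libraries at 1, 4 and 5 h. The histone sum peaks at 1 h, and the G2 and mitosis sum climbs from 4400 and 4530 CPM at 0 h to between 8080 and 8690 CPM at 4 and 5 h.

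Of 51 genes of DNA replication (origin licensing, the fork and the polymerases), 2 rose and 2 fell, 3.92% each way beside 5.98% and 5.99% of all genes, with a median of 0.00778. Gins1, a subunit of the replicative helicase, rose by 0.41 on the log2 scale and Pole2, a polymerase epsilon subunit, by 0.26. Wdhd1, a replisome adaptor, fell by 0.32, and the other was Slbp. All 4 calls were lost without either library of 1 h. Pole2 lost its call in 13 of 18 other settings (adjusted p up to 0.827), Gins1 in 10 (up to 0.291) and Wdhd1 in 7 (up to 0.238). Mcm2, a helicase subunit, measured 115 and 113 CPM at 1 h and 99.4 to 139 CPM at 4 to 5 h, and the groups overlapped. Pcna, the sliding clamp, measured 84.2 and 91.8 CPM at 1 h and 78.2 to 96.9 CPM later, also with overlap. With total counts outside the ribosomal RNA genes the DNA replication list had 8 members lower and 0 higher. Under that scaling 2127 of all 17739 genes were lower and 445 higher. The median was then -0.207 in the list and -0.201 over all genes.

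Among 29 genes of nucleotide synthesis, 3 fell and 0 rose (5.99% of all genes were lower), with a median of -0.109. They were Shmt1, a serine hydroxymethyltransferase of the folate cycle (-0.46, adjusted p = 0.00683), Tk1, the thymidine kinase of cycling cells (-0.40, adjusted p = 0.0368), and Dhodh, of pyrimidine synthesis (-0.28), all in edgeR's quasi-likelihood test. Without replicate 1 of 1 h none of these 3 was called, and Tk1 and Dhodh lost their calls in 9 of 18 other settings each. Of 27 G1 cyclins, E2F factors and CDK inhibitors, 7 rose and 3 fell (5.98% and 5.99% of all genes did), with a median of 0.174. E2f6, a repressive E2F, measured 29.7 and 28.8 CPM at 1 h, 23.7 and 23.3 CPM at 2 h, 20.2 and 20.2 CPM at 3 h, 16.9 and 15.1 CPM at 4 h and 14.1 and 16.7 CPM at 5 h. It stepped down at each time and its groups did not overlap (log2 fold change -0.89 ± 0.10, adjusted p = 7.03e-05). Ccne1, which encodes cyclin E1 of the entry into S phase, fell by 0.42 (adjusted p = 0.00406), and Tfdp1, a partner of E2F, by 0.50.

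Those of this list that rose were the pocket protein genes Rbl1 (0.41) and Rbl2 (0.39), the E2F genes E2f1 (0.40), E2f3 (0.56) and E2f5 (0.55), the E2F partner Tfdp2 (0.50) and the CDK inhibitor gene Cdkn1a (0.44). With total counts alone, or outside the ribosomal RNA genes, 0 of the list were higher and 3 lower, and without replicate 1 or 2 of 1 h 2 and 0 were higher and 2 and 2 lower. Of 38 genes of DNA damage signalling and repair, 2 rose, and both were checkpoint kinase genes: Chek1 (0.56) and Chek2 (0.43). Rad51ap1, of recombination repair, fell by 0.47. These are 5.26% higher and 2.63% lower, beside 5.98% and 5.99% of all genes. The calls of Chek1 and Rad51ap1 were lost without replicate 1 of 1 h and those of Chek1 and Chek2 without replicate 2.

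Lockd, a long noncoding RNA downstream of the CDK inhibitor gene Cdkn1b, rose at every step. The gene lies at chr6:134929092-134956798 (mm10, plus strand). It measured 1.19 and 1.48 CPM at 0 h, 4.87 and 5.54 CPM at 1 h, 9.72 and 9.48 CPM at 2 h, 14.6 and 13.8 CPM at 3 h, 17.3 and 17.6 CPM at 4 h and 18.2 and 18.7 CPM at 5 h. Each time point lay above the one before without overlap, and the log2 fold change from 1 h was 0.88 ± 0.11 at 2 h (adjusted p = 0.00269, edgeR's quasi-likelihood test) and 1.79 ± 0.10 at 4 to 5 h (adjusted p = 8.79e-08). Emp1, an epithelial membrane protein gene on the same chromosome, measured 2.92 and 1.98 CPM at 0 h, 9.06 and 8.17 CPM at 1 h, 21.8 and 20.8 CPM at 2 h, 28.1 and 29.4 CPM at 3 h, 32.7 and 30.5 CPM at 4 h and 28.6 and 34.8 CPM at 5 h. It rose steeply to 3 h and then levelled, with a log2 fold change of 1.88 ± 0.13 at 4 to 5 h (adjusted p = 6.8e-07). Both calls held under each of the 18 other settings tried.

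Immediate early genes, which respond within minutes to growth factors, serum or stress, were among those that fell. Of 27 tested, 11 fell and 0 rose (5.99% of all genes were lower), with a median of -0.583. Their summed level was 603 and 560 CPM at 0 h, 575 and 612 CPM at 1 h and 407 to 505 CPM at 4 to 5 h. Against 0 h, 14 members were lower and 1 higher at 4 to 5 h (13.5% and 13.7% of all genes were). Ccn1, a matricellular protein gene, measured 35.3 and 40.6 CPM at 1 h, 20.6 and 25.7 CPM at 2 h, 24.8 and 16.2 CPM at 3 h, 16.4 and 11.7 CPM at 4 h and 15.9 and 11.7 CPM at 5 h. Its groups did not overlap and the log2 fold change was -1.45 ± 0.16 (adjusted p = 3.73e-05, edgeR's quasi-likelihood test). Atf3, a stress-induced transcription factor gene, went from 46.2 and 32.4 CPM at 0 h through 20.1 and 22.2 CPM at 1 h to 9.21 and 7.96 CPM at 4 h and 7.08 and 10.0 CPM at 5 h (-1.29 ± 0.15, adjusted p = 5.14e-05). It was highest at the end of the block and lower at each later stage. The AP-1 genes Junb (-1.63), Fosl1 (-1.70), Fos (-1.32), Jun (-0.84) and Fosl2 (-0.82) fell too, from 7.05 CPM or less in the mean at 1 h. Without replicate 1 or replicate 2 of 1 h, 5 members of the list were called, and without replicate 2 of 4 h 7 were.

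The actin cytoskeleton genes controlled by SRF, a factor that responds to free actin, fell in a like way. This list of 27 was written after values were seen, so its counts support nothing on their own: 12 fell and 0 rose (5.99% of all genes were lower), with a median of -0.434. Its summed level was 3410 and 3330 CPM at 0 h, 3660 and 3600 CPM at 1 h and 2670 to 3150 CPM at 4 to 5 h. Against 0 h, 11 members were lower and 1 higher at 4 to 5 h (13.5% and 13.7% of all genes were). Tpm1, a tropomyosin gene, measured 133 and 124 CPM at 1 h, 97.0 and 95.6 CPM at 2 h, 79.6 and 76.9 CPM at 3 h, 71.0 and 71.0 CPM at 4 h and 63.1 and 62.0 CPM at 5 h. It dropped at every step without overlap between neighbouring times, and the log2 fold change was -0.95 ± 0.07 (adjusted p = 6.8e-07, edgeR's quasi-likelihood test). Csrp1, an actin-bundling LIM protein gene, fell by 1.07 on the log2 scale, from 113 and 107 CPM to 46.9 to 59.5 CPM, and Tpm4 by 0.90, Wdr1, of actin disassembly, by 0.79, and Zyx, of focal adhesions, by 1.14. Srf itself measured 19.5 and 21.2 CPM at 1 h, 13.8 and 13.2 CPM at 2 h, 10.5 and 7.66 CPM at 4 h and 10.9 and 10.5 CPM at 5 h (-1.04 ± 0.13, adjusted p = 0.000151).

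SRF binds the CArG box, and the promoter of its own gene is printed because it carries a pair of them. The stretch is the 250 bases before the RefSeq start, at chr17:46556163-46556412 on the minus strand (GRCm38.p6), with CArG boxes in capitals.
Srf: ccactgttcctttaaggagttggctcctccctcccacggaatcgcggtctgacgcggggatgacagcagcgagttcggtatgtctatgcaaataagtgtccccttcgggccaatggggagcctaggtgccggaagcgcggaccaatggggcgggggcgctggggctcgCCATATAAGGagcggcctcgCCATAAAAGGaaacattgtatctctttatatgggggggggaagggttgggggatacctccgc
They begin 82 and 62 bases before the start. A CArG box stood in 8 of 24 promoters of the SRF and actin list (33.3%), against 1.64% of all promoters of tested genes and 2.11% of those of the genes called lower. As the list was written as targets of SRF, this share describes the list and not this change. The motif was searched after values were seen.

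**Figure D3:**
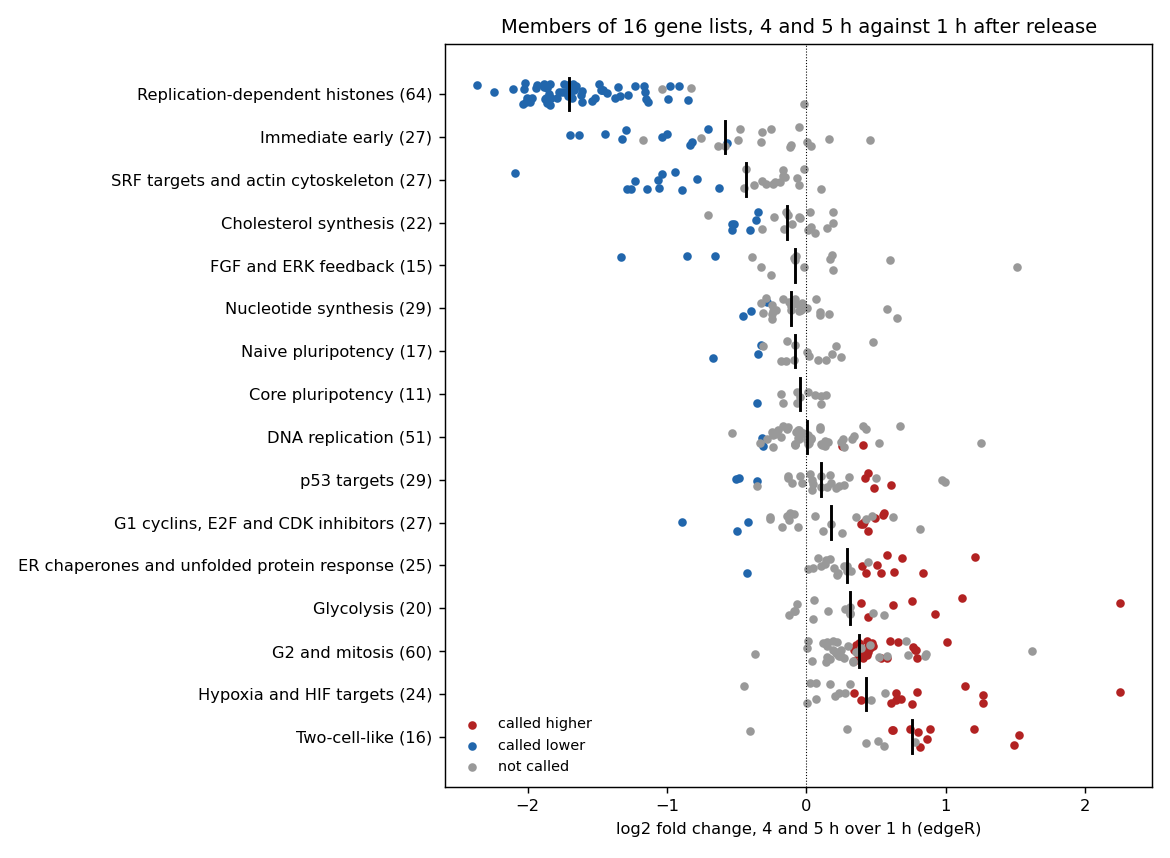
Each point is 1 gene, placed by its log2 fold change from 1 h to 4 and 5 h (horizontal axis) in 1 of 16 gene lists (vertical axis, number of genes in brackets). Colours mark genes called higher, called lower or not called, and bars the list medians. The histone list lies furthest left, with a median of -1.70, and the G2 and mitosis list lies almost wholly to the right of 0.

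Genes of low oxygen and of glycolysis rose. Of 24 tested targets of hypoxia-inducible factor (HIF), a list written after values were seen, 12 rose and 0 fell (median 0.426), and of 20 glycolysis genes 7 rose and 0 fell (median 0.315), while 5.98% of all genes were higher. The lists share Slc2a1, a glucose transporter gene, and Slc16a3, the gene of a lactate exporter. Slc16a3 measured 0.541 and 2.16 CPM at 0 h, 2.01 and 2.63 CPM at 1 h, 3.93 and 4.50 CPM at 2 h, 10.2 and 8.48 CPM at 3 h, 9.74 and 8.99 CPM at 4 h and 13.7 and 12.2 CPM at 5 h. It was low to 2 h and high from 3 h on, with a log2 fold change of 2.25 ± 0.32 (adjusted p = 0.000357, edgeR's quasi-likelihood test). Ndrg1, a hypoxia-induced gene, rose earlier, from 13.9 and 11.9 CPM at 1 h to 29.5 and 24.5 CPM at 2 h and 37.4 and 35.5 CPM at 3 h. It was then 25.2 to 33.0 CPM at 4 to 5 h, above both libraries of 1 h (1.14 ± 0.13, adjusted p = 5.1e-05).

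In glycolysis, Pfkp, a phosphofructokinase gene, measured 180 and 154 CPM at 1 h, 219 and 224 CPM at 2 h, 254 and 274 CPM at 3 h, 292 and 315 CPM at 4 h and 322 and 340 CPM at 5 h. It climbed at each step, without overlap of the groups, and the log2 fold change was 0.92 ± 0.09 (adjusted p = 1.66e-05, edgeR's quasi-likelihood test). Pfkl, another subunit gene, rose by 1.11, Pgk1 by 0.76, Pkm, the pyruvate kinase gene, by 0.62 and Ldha by 0.44. Other targets of HIF that rose were Mxi1, a MYC antagonist (0.64), Egln3, an oxygen-sensing hydroxylase (1.26), Vegfa, a vascular growth factor (0.65), and Bnip3, of mitophagy (0.61). Bnip3 had a value of 0.05 in 4HT-treated cells. Without replicate 1 or 2 of 1 h the HIF list held 6 and 7 calls. With total counts outside the ribosomal RNA genes it held 6 higher and 1 lower, and the glycolysis median was 0.0971.

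The promoter of Slc16a3 is printed because this gene had the largest called rise among the named genes. The stretch is the 250 bases before the RefSeq start, at chr11:120948817-120949066 on the plus strand (GRCm38.p6), with ACGTG, the core of the element that HIF binds, in capitals.
Slc16a3: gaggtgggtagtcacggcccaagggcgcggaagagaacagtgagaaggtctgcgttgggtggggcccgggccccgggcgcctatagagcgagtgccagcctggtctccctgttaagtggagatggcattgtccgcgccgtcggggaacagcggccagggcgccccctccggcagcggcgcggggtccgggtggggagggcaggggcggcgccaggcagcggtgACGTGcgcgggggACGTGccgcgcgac
The 2 matches begin 27 and 14 bases before the start. ACGTG stood, on either strand, in 17 of 21 promoters of the HIF list (81%), against 28.1% of all promoters of tested genes and 26.8% of those of the genes called higher. The list was written as targets of the factor that binds this motif, so its share describes the list and not this change. This motif was searched after values were seen, and 5-letter cores of this kind also fall inside the E-box CACGTG.

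Chaperones of the endoplasmic reticulum (ER), which fold secreted and membrane proteins, rose as well. Of 25 genes of this kind and of the unfolded protein response, a list written after values were seen, 9 rose and 1 fell (median 0.288), beside 5.98% and 5.99% of all genes. Hsp90b1, the ER form of HSP90, measured 87.6 and 90.6 CPM at 1 h, 157 and 144 CPM at 2 h, 130 and 163 CPM at 3 h, 205 and 182 CPM at 4 h and 192 and 247 CPM at 5 h. All later libraries exceeded 1 h, and the log2 fold change was 0.76 at 2 h (adjusted p = 0.0118, edgeR's quasi-likelihood test) and 1.21 ± 0.11 at 4 to 5 h (adjusted p = 1.5e-05). Hspa5, the ER HSP70, measured 46.8 and 51.5 CPM at 1 h, 64.2 and 59.6 CPM at 2 h, 88.9 and 75.6 CPM at 4 h and 91.4 and 95.6 CPM at 5 h (0.84 ± 0.11, adjusted p = 0.000141). The groups did not overlap.

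The disulfide isomerase genes Pdia6 (0.68), Pdia4 (0.58) and Pdia3 (0.54), Manf (0.63), the lectin chaperone genes Calr (0.43) and Canx (0.40) and Xbp1 (0.50), a transcription factor of the response, also rose. Selenos, of ER-associated degradation, fell by 0.43. Without replicate 1 of 1 h the list held 5 higher and 0 lower, and with total counts alone 2 and 0. With total counts outside the ribosomal RNA genes it held 3 higher and 1 lower, with a median of 0.0754.

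The promoters of Hspa5 and Hsp90b1 are printed because the ER stress response element, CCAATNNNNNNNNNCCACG, is rare among promoters and stands in both. Each stretch is the 250 bases before the RefSeq start (GRCm38.p6), at chr2:34771840-34772089 on the plus strand and at chr10:86705445-86705694 on the minus strand, with the element in capitals.
Hspa5: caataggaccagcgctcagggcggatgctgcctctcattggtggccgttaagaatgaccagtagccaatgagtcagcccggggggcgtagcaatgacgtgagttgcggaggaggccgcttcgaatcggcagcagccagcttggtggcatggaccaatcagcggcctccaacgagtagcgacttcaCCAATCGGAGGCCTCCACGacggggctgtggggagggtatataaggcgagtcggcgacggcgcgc
Hsp90b1: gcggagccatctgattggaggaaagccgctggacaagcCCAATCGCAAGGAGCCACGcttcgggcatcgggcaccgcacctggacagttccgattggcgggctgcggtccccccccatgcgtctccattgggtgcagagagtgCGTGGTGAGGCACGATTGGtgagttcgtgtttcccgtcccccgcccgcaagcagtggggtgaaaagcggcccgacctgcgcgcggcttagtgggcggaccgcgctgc
The element begins 65 bases before the start of Hspa5, and 212 and, on the other strand, 107 bases before that of Hsp90b1. It stood in 24 of the 12572 promoters (0.191%) and in 9 of 21 of the ER list (42.9%), and in 1.05% of the promoters of genes called higher. It contains CCAAT, so the 2 searches overlap, and it was searched after values were seen. The list and the element belong to the same response, so the list's share describes the list and not this change.

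Of 11 core pluripotency genes tested, 0 rose and 1 fell (9.09%, beside 5.99% of all genes lower), Lin28a (-0.35). Nanog measured 280 and 309 CPM at 1 h and 267 to 313 CPM at 4 to 5 h, and Pou5f1, which encodes OCT4, 111 and 126 CPM against 95.4 to 135 CPM, both with overlap. Of 17 naive pluripotency genes 3 fell (17.6%) and 0 rose: Stat3, Tbx3 (-0.35) and Klf5 (-0.33). Lin28a, Tbx3 and Klf5 lost their calls in 12, 7 and 8 of 18 other settings, among them those without either library of 1 h or without replicate 2 of 4 h. Stat3, the mediator of LIF signalling, measured 96.6 and 84.3 CPM at 1 h, 67.2 and 68.9 CPM at 2 h, 58.4 and 62.7 CPM at 4 h and 54.2 and 52.8 CPM at 5 h. The later libraries were all lower (-0.67 ± 0.09, adjusted p = 0.000221, edgeR's quasi-likelihood test).

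Of 12 formative and primed epiblast genes 3 rose (25%, beside 5.98% of all genes higher), Fgf5 (2.19), Lef1 and Dnmt3b (0.43), and 1 fell, Etv4. Dnmt3b lost its call in 8 of 18 other settings, among them those without either library of 1 h. Lef1, a transcription factor of the WNT pathway, measured 11.3 and 8.59 CPM at 1 h, 13.4 and 18.8 CPM at 2 h, 30.5 and 26.2 CPM at 3 h, 23.9 and 33.4 CPM at 4 h and 29.8 and 22.8 CPM at 5 h (1.45 ± 0.23, adjusted p = 0.000767, edgeR's quasi-likelihood test). It stood near its 4 to 5 h level at 3 h, and the groups did not overlap. Fgf5, a growth factor of the primed epiblast, was low throughout, at 0.365 and 0.426 CPM at 1 h and 1.63 to 1.95 CPM at 4 to 5 h. Of 15 genes of feedback on FGF and ERK signalling 3 fell (5.99% of all genes were lower): Spry4, Dusp5 (-0.86) and Etv4 (-0.66). Spry4, an inhibitor of the pathway, measured 24.0 and 22.8 CPM at 1 h, 21.6 and 19.3 CPM at 2 h, 16.9 and 12.6 CPM at 3 h, 10.4 and 9.21 CPM at 4 h and 9.89 and 7.79 CPM at 5 h. It was near its 1 h level at 2 h and fell later (-1.33 ± 0.14, adjusted p = 4.07e-05).

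The two-cell-like genes, which a small fraction of ESCs in culture express together as the early embryo does, rose in 10 of 16 members tested and fell in 0 (5.98% of all genes were higher), with a median of 0.76. Usp17le, a deubiquitinase gene of this state, measured 3.47 and 3.62 CPM at 1 h, 5.12 and 5.97 CPM at 2 h, 7.70 and 8.40 CPM at 4 h and 7.08 and 9.40 CPM at 5 h (1.20 ± 0.19, adjusted p = 0.000759, edgeR's quasi-likelihood test). All libraries of 4 to 5 h were above 1 h. Zfp352 rose by 1.52, and Zscan4a, Zscan4b, Zscan4c, Zscan4d and Zscan4e by 0.80, 0.89, 0.62, 0.62 and 0.74. The Zscan4 and Usp17l genes are families of near-identical copies, so the split between copies is uncertain. Without replicate 1 or replicate 2 of 1 h 1 member was called, without replicate 2 of 5 h 5 were, and with total counts alone 3 were.

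Among the genes with the largest changes in each direction, the lower ones were 10 histone genes, Trim17 and S100a1. Trim17, an E3 ubiquitin ligase gene, measured 11.5 and 11.6 CPM at 1 h, 2.99 and 2.46 CPM at 2 h, 3.51 and 2.43 CPM at 4 h and 2.18 and 3.29 CPM at 5 h, after 2.81 and 3.33 CPM at 0 h. Like the histone genes it was high at 1 h alone (-1.99 ± 0.23, adjusted p = 7.03e-05, edgeR's quasi-likelihood test). Hist3h2a, a histone H2A gene, starts at the same base as Trim17 (chr11:58954685, mm10, plus strand), lies wholly inside it on the same strand and is listed at 0 in every library, so RNA of the 2 genes cannot be told apart in these counts. S100a1, a calcium-binding protein gene, fell from 4.08 and 5.47 CPM to 1.31 and 0.81 CPM at 4 h and 0.817 and 1.14 CPM at 5 h (-2.18 ± 0.26, adjusted p = 8.44e-05).

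The higher ones, apart from Slc16a3 and Emp1, were mostly long genes. A lack of overlap between 1 h and 4 to 5 h was a condition for choosing these genes, so it is not a result for them. Prelid2 measured 5.48 and 6.67 CPM at 1 h, 7.65 and 11.4 CPM at 2 h, 14.1 and 22.7 CPM at 3 h, 20.2 and 35.3 CPM at 4 h and 32.0 and 26.9 CPM at 5 h (2.23 ± 0.26, adjusted p = 7.03e-05, edgeR's quasi-likelihood test). Bcl11a, a zinc-finger repressor gene, went from 1.70 and 1.42 CPM to 5.30 to 8.10 CPM (1.97 ± 0.23, adjusted p = 7.32e-05). Both held their calls under each other setting. Tnik, a kinase gene of 412645 bases, measured 28.6 and 44.4 CPM at 1 h, 48.8 and 80.5 CPM at 2 h, 36.7 and 81.9 CPM at 3 h, 86.2 and 172 CPM at 4 h and 129 and 125 CPM at 5 h. Its replicate 1 lay below replicate 2 at 1, 2, 3 and 4 h. Tnik had a log2 fold change of 1.81 ± 0.33 (adjusted p = 0.00233), which became an adjusted p of 0.0579 without replicate 1 of 1 h. Dclk1 (296705 bases) and Chrm3 (485362 bases) likewise rose, by 1.98 and 1.83. Chrm3 lost its call in 6 of 18 other settings (adjusted p up to 0.215), among them those without replicate 1 or 2 of 1 h or replicate 2 of 4 h, and Dclk1 in 1, a fit of the libraries compared (adjusted p = 0.0537).

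The change followed gene length as the count table gives it, introns included. The median log2 fold change was -0.142 in 2720 genes under 5 kb, -0.0813 in 5408 genes of 5 to 20 kb, 0.00355 in 4634 of 20 to 50 kb, 0.187 in 2463 of 50 to 100 kb, 0.375 in 2282 of 100 to 500 kb and 0.565 in 232 genes over 500 kb. Of the genes over 500 kb, 36 were higher (15.5%) and 0 lower. Of those under 5 kb, 47 were higher (1.73%) and 176 lower (6.47%). Beside these stand 5.98% of all genes higher and 5.99% lower. Spearman's rho with length across the 17739 genes, which share libraries and are not independent, was 0.355, against 0.223 for the change at 2 h, 0.136 at 3 h and -0.144 for 4 to 5 h against 0 h. With 4HT, in other libraries, rho was 0.306 for 4 to 5 h against 1 h. The 4HT median was -0.156 in genes under 5 kb and 0.881 in those over 500 kb. The ethanol libraries were uneven in this. In genes over 500 kb the median against the mean of 1 h was 0.0388 in replicate 1 of 4 h, 0.843 in replicate 2 of 4 h, 0.716 in replicate 1 of 5 h and 0.416 in replicate 2 of 5 h, and the 2 libraries of 1 h differed by -0.452 (replicate 1 less replicate 2).

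**Figure D4:**
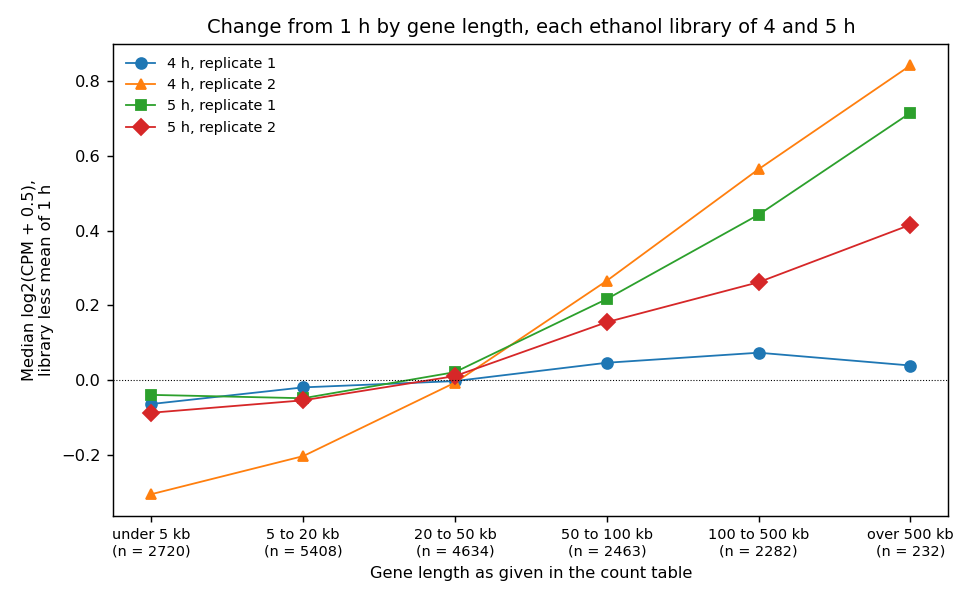
Median over genes of log2(CPM + 0.5) in a library less the mean of the 1 h libraries (vertical axis), in 6 classes of gene length (horizontal axis, number of genes below), for the 4 ethanol libraries of 4 and 5 h. Replicate 1 of 4 h stays near 0 in genes over 500 kb (0.0388), and the other 3 libraries reach 0.416 to 0.843.

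With the length trend taken out of each library, 2001 genes were called, 816 of them higher. The histone list then had 61 members lower, with a median of -1.58, and the G2 and mitosis list 29 higher, with a median of 0.389. The two-cell-like list had 12 higher and the ER list 9 higher and 1 lower. The differences between partner libraries thus ran along gene length too, and their part in the length trend was not tested.

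Most genes called with ethanol changed in the same direction in cells treated with 4HT, which share no library with the ethanol arm. In the 4HT arm only 4 to 5 h against 1 h was compared. There 1757 genes (9.9%) differed at 4 to 5 h from 1 h, 706 (3.98%) higher and 1051 (5.92%) lower. Of the genes higher with ethanol, 432 were also called higher with 4HT, 40.7% of the ethanol genes and 61.2% of the 4HT genes. Of those lower, 587 were shared, 55.2% and 55.9%, and 0 genes were called in opposite directions. Of the 1061 higher genes 1049 (98.9%) had a positive value with 4HT, as did 47.4% of all genes, and of the 1063 lower genes 1043 (98.1%) had a negative one, as did 52.6% of all.

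**Figure D5:**
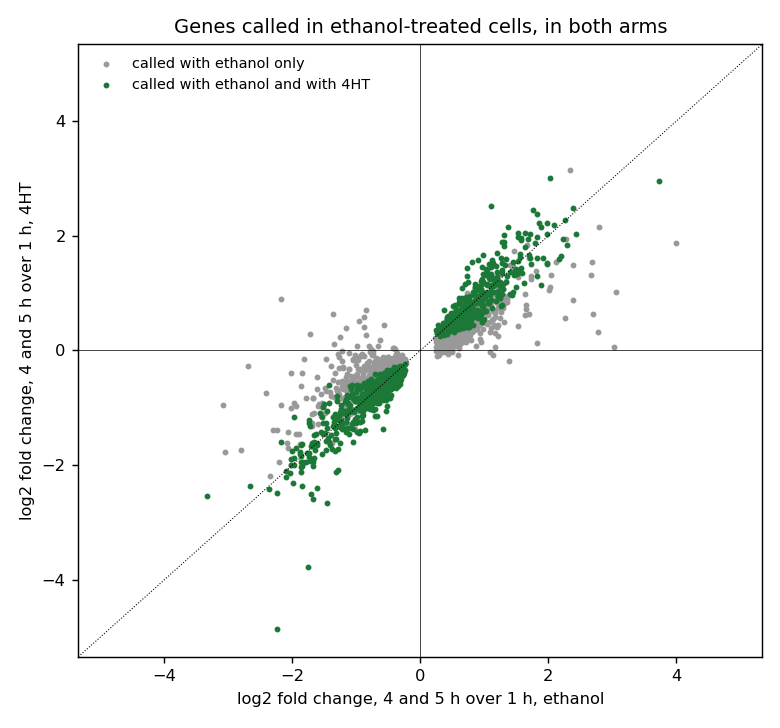
Each point is 1 of the 2124 genes called with ethanol, placed by its log2 fold change from 1 h to 4 and 5 h with ethanol (horizontal axis) and with 4HT (vertical axis). Green points are called in both arms, grey points with ethanol alone, and the dotted line marks equal change. Nearly all points lie in the lower left and upper right of the plot, the same side of 0 on both axes.

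The histone and the G2 and mitosis lists moved in the same direction with 4HT as with ethanol. Of all genes tested, 3.98% were higher and 5.92% lower with 4HT, beside 5.98% and 5.99% with ethanol. Of the 64 histone genes 59 fell with 4HT (median -1.76), and Hist1h4i went from 44.6 and 48.6 CPM at 1 h to 11.1 to 12.8 CPM at 4 to 5 h. Of the 60 G2 and mitosis genes 22 rose with 4HT (median 0.327). Lockd rose by 1.88 and Emp1 by 2.15 with 4HT, and Tpm1 fell by 1.03. Other lists are given with both values. Of the DNA replication genes 1 rose and 9 fell with 4HT (2 and 2 with ethanol), with a median of -0.0991 beside 0.00778. Of the G1 and E2F genes 3 rose and 3 fell (7 and 3 with ethanol), with a median of -0.0482 beside 0.174. Of the SRF and actin genes 18 fell (12 with ethanol), with a median of -0.856 beside -0.434, and of the HIF targets 6 rose and 1 fell (12 and 0 with ethanol). The difference between the arms was not tested for a list. For single genes, the test of the difference between the arms in this change called 0 genes in edgeR's quasi-likelihood test, with 452 at an unadjusted p under 0.05, and 0 with DESeq2, while 82 genes were called without the filter on low counts. Over the genes called with ethanol, the median was 0.622 and 0.445 (ethanol and 4HT) for the higher ones and -0.656 and -0.539 for the lower ones; the ethanol values chose these genes, so the smaller size with 4HT is a description. In this arm the number of calls fell to 506 or 479 without replicate 1 or 2 of 1 h.

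Against the blocked cells themselves, 4 to 5 h differed in more genes than against 1 h. There 2435 genes (13.7%) were higher and 2386 (13.5%) lower. By the means of the libraries, 253 (23.8%) of the 1061 genes higher than at 1 h stood lower at 0 h than at 1 h, as Lockd and Emp1 did. Another 631 stood at 0 h between their 1 h and their 4 to 5 h levels, so that 1 h was their low point, and 177 (16.7%) stood higher at 0 h than at 4 to 5 h. Among the 1063 lower genes, 390 (36.7%) stood higher at 0 h than at 1 h, as Atf3 did. Another 547 stood between the 2 levels at 0 h, with 1 h their high point, as Hist1h4i did, and 126 (11.9%) stood lower at 0 h than at 4 to 5 h. The libraries of 1 h and of 4 to 5 h that chose these genes also set the levels between which 0 h is placed here, so these counts are a description.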

How the data were processed

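The deposited values are counts of reads per gene, whole numbers that the authors did not normalize, in 1 table of 24 synchronized libraries. STAR, featureCounts and the build mm10 are named in the submitters' processing notes. How strand and multiply matching reads were treated, and the program versions, are not stated there, so antisense, overlapping and near-identical genes are uncertain. In all 54752 genes the length spans start to end, so introns lie inside the counted interval. Gene names came from a table that matched 53861 IDs with their version and 54723 without it.

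All 24 libraries (12 groups of 2, by sample title) were fitted together with edgeR 4.0.16 in R 4.3.3, with TMM factors, genes kept by filterByExpr at a minimum count of 10 and one mean per group. The comparisons were ethanol at 4 and 5 h against 1 h, 2 h against 1 h, 3 h against 1 h, 5 h against 4 h and 4 and 5 h against 0 h, the same change with 4HT, and the difference between the arms. A gene was called at an adjusted p (Benjamini-Hochberg, over all genes tested) under 0.05. The SE of a log2 fold change is its size over the root of F. CPM are relative within a library and TMM scaled, except the floor and the summed cell type markers, which are per total counts without TMM factors. No label says that replicates were separate cultures, so the p-values reflect the spread between these samples only, possibly a technical one. The fit was tested on simulated counts.

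The members and the gene lists were chosen with earlier results of these data known, and 5 lists (ER chaperones, HIF targets, SRF targets, YAP targets and replacement histones) and the TATA, ACGTG, CArG and ER stress element motifs were added after values were seen. Named genes are the 12 largest changes in each direction, taken from called genes whose log2 CPM averages 1 or more, whose symbol is not provisional and whose groups do not overlap, up to 6 members of each list by smallest p, and the 6 smallest p at 2 h. Lockd came by the last of these, and 1 gene that the rule names is not reported here. Nanog, Pou5f1, Mcm2, Pcna and the further called members of a list were chosen after their values were seen. Other settings were RLE factors, DESeq2 1.42.0, total counts as they are and total counts outside Gm26917 and Gm42418, no filter, the replicate block, removal of the length trend, fewer libraries in the fit and leaving out each library. Promoters are from RefSeq (GRCm38.p6) and were found for 12572 of 17739 genes. They were matched by gene ID, and failing that by symbol or by an unambiguous synonym.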

Additional observations from a re-analysis of the deposited data

How the results depend on the processing

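Of 2556 values of 142 called named genes under 18 other settings, 1937 kept their call, 619 kept their direction but lost it, and 0 reversed. The 2124 calls of 4 to 5 h against 1 h became 1148 with 4 h alone, 1135 with 5 h alone, 988 with total counts alone, 3339 without the filter, 599 in a fit of the 12 ethanol libraries, 184 in a fit of the 6 libraries compared, and 3224 without replicate 1 of 3 h, a setting added after values were seen. Leaving out 1 library of the comparison gave 505 to 3433. The 70 calls at 2 h became 14 with total counts alone, 34 outside the ribosomal RNA genes, 396 without the filter, 120 with DESeq2, 2 in the ethanol fit, 12 in the fit of the libraries compared and 4 to 25 with 1 library left out. The 261 calls at 3 h became, in the same order but with the filter kept, 52, 89, 392, 18, 0 and 37 to 561.

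For 5 h against 4 h, 3 genes were called without the filter, and for the difference between the arms 82. Against 0 h, the 4821 calls became 2784 in the ethanol fit, 2286 in the fit of the libraries compared, and 2206 to 4990 with 1 library left out. With 4HT, the 1757 calls became 754 with total counts alone, 2682 without the filter, 3549 in the fit of the libraries compared, and 479 to 1297 with 1 library left out. Where this leaves 1 library at a time point, it is taken to vary as the other groups do. The cause of these shifts was not tested.

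Replicates share only a number, which the labels do not tie to a shared culture. With a replicate block, 3720 genes were called for 4 to 5 h against 1 h (2267 higher and 1453 lower), 102 for 2 h, 346 for 3 h, 0 for 5 h against 4 h, 5468 against 0 h, 2805 with 4HT and 0 for the difference between the arms. The differences between replicates 1 and 2 correlated at -0.288 to 0.632 between 15 pairs of times, over 0.1 in 11.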

Other observations

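Cholesterol synthesis genes fell in 6 of 22 members and rose in 0 (median -0.139, with 5.99% of all genes lower), with Lss, the enzyme that makes lanosterol, at -0.53 (15.6 to 10.8 CPM in the mean, adjusted p = 0.00591, edgeR's quasi-likelihood test) and Sqle, the squalene epoxidase, at -0.35 (35.4 to 27.8 CPM, adjusted p = 0.0088). Without replicate 1 or 2 of 1 h 0 and 1 of them were called, without replicate 2 of 4 h 2 and without replicate 1 of 5 h 3. Of 29 targets of p53, 4 rose and 3 fell (5.98% and 5.99% of all genes did): the CDK inhibitor gene Cdkn1a rose by 0.44 and Sesn1, of the stress response, by 0.61, while Pmaip1, a death-promoting BCL2 relative, fell by 0.48. Without replicate 1 of 1 h 0 rose and 1 fell, without replicate 2 of 1 h 2 rose and 1 fell, and without replicate 2 of 4 h or replicate 1 of 5 h 2 rose and 2 fell. Of 14 targets of YAP and TEAD, a list written after values were seen, 4 fell and 2 rose, and without replicate 1 or 2 of 1 h 3 and 2 fell and 0 rose. With all libraries, 28.6% of the YAP and TEAD list was lower and 14.3% higher, beside 5.99% and 5.98% of all genes. Amotl2, which restrains YAP, fell from 192 to 117 CPM in the mean (-0.71, adjusted p = 0.00031). Id2, a target of BMP signalling, fell from 4.75 and 4.40 CPM at 1 h to 2.15 and 2.06 CPM at 4 h and 1.36 and 1.34 CPM at 5 h (-1.44, adjusted p = 7.58e-05), and its call held under each other setting. Stc2, a secreted glycoprotein gene induced by stress, rose by 1.62 (3.44 to 10.6 CPM in the mean).

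Beside the 12% of all genes called in either direction, none of 27 genes of RNA polymerase II and elongation and none of 31 chromatin modifier genes was called in edgeR's quasi-likelihood test, and 1 of 83 cytosolic ribosomal protein genes was, Rpl7 (0.37), whose call was lost without either library of 1 h. Of 76 nuclear genes of the respiratory chain 0 rose and 2 fell. All 21 cohesin and condensin genes had positive values (median 0.454), as did 9112 of all 17739 genes, but 2 were called, Rad21 (0.40) and Pds5b (0.88). The list's median was -0.0289 at 3 h, and 0.338 at 4 to 5 h with the length trend removed. Its summed level overlapped, at 2300 and 2900 CPM at 1 h and 2820 to 4530 CPM at 4 to 5 h. With 4HT 0 members were called. Rad21 lost its call in 13 of 18 other settings and Pds5b in 7, both of them without either library of 1 h. Mitochondrially encoded mt-Nd5 rose from 419 and 477 CPM at 1 h to 713 to 1130 CPM at 4 to 5 h (0.97, adjusted p = 0.0381), beside 713 and 957 CPM at 0 h. Its call was lost in 10 of 18 other settings (adjusted p up to 0.246), among them those without either library of 1 h, without replicate 2 of 4 h or without replicate 2 of 5 h.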
